A study of Mus musculus with 20 samples.

Results

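The genes described here are 10 receptors through which inflammatory mediators act on sensory neurons, namely Ptger1, Ptger2, Ptger3, Ptger4, Ptgir, Bdkrb1, Bdkrb2, F2r, F2rl1 and F2rl2. They were taken by Ensembl identifier from the 37620 genes of the deposited table. The rule for them uses no measured value, although they were chosen with earlier results of these data known. The RNA came from sorted Trpv1 neurons of the dorsal root ganglia (DRG) of 5 male and 5 female mice aged 6 to 8 weeks, with 1 lumbar (L4-5) and 1 sacral (L6-S1) library per donor. This gave 20 libraries in 4 groups of 5, male lumbar, male sacral, female lumbar and female sacral. All donors were homozygous for Trpv1tm2Bbm, a reporter allele (PLAP-nLacZ) that puts β-galactosidase under the control of Trpv1, and no group received a treatment. Ganglia were digested with collagenase and trypsin into single cells, and the paper states that isolation and sorting may have acutely changed transcription. The brightest cells were collected after loading with a fluorescent β-galactosidase substrate. The gate therefore reports activity of the Trpv1 locus in the adult, and no stain for other cell types was used besides DAPI, which marks dead cells. Each donor label carries 2 animal numbers, the sources used here do not say whether cells of 2 animals were pooled, and p-values measure the spread between these donors. The question put to the data was whether these receptors differ between sacral DRG, where sensory neurons of the pelvic organs are aggregated, and lumbar DRG.

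Tissue injury and inflammation release prostaglandins, kinins and proteases, which sensitize nociceptors through G protein-coupled receptors. Ptger1 to Ptger4 encode the EP1 to EP4 receptors of prostaglandin E2 and Ptgir the prostacyclin receptor IP. Of these, EP2, EP4 and IP couple mainly to Gs and raise cAMP, EP3 mainly to Gi, and EP1 raises intracellular calcium. Bdkrb2 and Bdkrb1 encode the B2 and B1 bradykinin receptors, the first usually constitutive and the second usually induced by injury, and both signal through Gq and phospholipase C. F2r, F2rl1 and F2rl2 encode the protease-activated receptors PAR1, PAR2 and PAR3, whose extracellular end is cut by thrombin, trypsin-like or related proteases to expose a tethered ligand. In sensory neurons these routes converge on protein kinases A and C, on Trpv1 and Trpa1 and on the sodium channels of nociceptors.

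The 3 protease-activated receptors lie close together on chromosome 13 of NCBIM37 (mm9), and each has its tethered ligand encoded in the second of 2 exons. The coding stretches around that ligand are shown because this is the part of each receptor that cleavage exposes. They were read from annotated coding transcripts of the build of the files, 5′ to 3′ on the coding strand, with positions on the genome. The capitals mark the 18 bases that encode the ligand exposed by cleavage.
F2r (PAR1), chr13:96374819-96374878, minus strand: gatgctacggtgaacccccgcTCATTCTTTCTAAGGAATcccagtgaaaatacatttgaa
F2rl1 (PAR2), chr13:96284175-96284234, minus strand: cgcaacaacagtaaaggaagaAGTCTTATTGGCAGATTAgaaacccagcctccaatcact
F2rl2 (PAR3), chr13:96470494-96470553, plus strand: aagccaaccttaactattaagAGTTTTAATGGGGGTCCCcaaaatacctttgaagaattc
Reads were kept by the authors only where they mapped to 1 place in the genome.

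Promoter sequence is shown for Ptgir, Ptger4 and F2rl2, the receptors with more RNA in sacral than in lumbar neurons of all 10 donors. The sequences are RefSeq entries of GRCm38.p6 from 250 bases before to 50 bases after the gene start, a build other than that of the expression table. Of the 10 receptors, 7 had an entry, and Ptger1, Bdkrb1 and F2rl1 did not. Capitals mark the motifs found on either strand, which are the GC box GGGCGG, the CCAAT box and the AP-1 motif TGANTCA.
Ptgir, chr7:16906240-16906539, plus strand: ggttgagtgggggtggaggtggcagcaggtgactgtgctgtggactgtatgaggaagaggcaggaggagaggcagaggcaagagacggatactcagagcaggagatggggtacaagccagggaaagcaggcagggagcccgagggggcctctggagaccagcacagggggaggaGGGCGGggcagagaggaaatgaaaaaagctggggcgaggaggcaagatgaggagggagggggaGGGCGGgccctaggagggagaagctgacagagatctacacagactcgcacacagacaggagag
Ptger4, chr15:5244138-5244437, minus strand: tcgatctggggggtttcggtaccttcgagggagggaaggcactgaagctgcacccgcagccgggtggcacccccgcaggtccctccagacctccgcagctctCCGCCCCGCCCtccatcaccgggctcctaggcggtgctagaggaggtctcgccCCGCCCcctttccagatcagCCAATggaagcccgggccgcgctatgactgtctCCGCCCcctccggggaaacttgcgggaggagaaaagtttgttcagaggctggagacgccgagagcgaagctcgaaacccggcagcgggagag
F2rl2, chr13:95696670-95696969, plus strand: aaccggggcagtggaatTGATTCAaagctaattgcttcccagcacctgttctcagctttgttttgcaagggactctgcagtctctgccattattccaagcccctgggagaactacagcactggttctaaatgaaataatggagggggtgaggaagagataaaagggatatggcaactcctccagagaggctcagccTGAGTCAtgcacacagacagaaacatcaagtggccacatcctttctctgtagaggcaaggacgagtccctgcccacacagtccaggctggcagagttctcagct
The Ptgir promoter held 2 GC boxes, the Ptger4 promoter 4 GC boxes (2 of them overlapping by 1 base) and 1 CCAAT box, and the F2rl2 promoter 2 AP-1 motifs. Of 32851 mouse promoters of this length, 35.7% held a GC box, 37.4% a CCAAT box and 7.8% an AP-1 motif. The cAMP response element TGACGTCA, found in 1.8% of all promoters, and the TATA box TATAAA, found in 13.6%, were in none of these 3 windows. The 3 promoters had 62%, 67% and 50.7% G and C, against a median of 52.7% over all promoters, and 6, 25 and 2 CpG, against a median of 7. Among the other receptors with an entry, Ptger3 held 3 GC boxes, F2r 1 GC box and 1 AP-1 motif, and Ptger2 1 CCAAT box. Bdkrb2 held none of these motifs. A link between motifs and spinal level was not tested.

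Levels are given as log2 RPKM, in which reads are divided by gene length and library size before the log, so levels of different genes can be set side by side. Reads on genes, worked back from these values, numbered 43906566 to 66407317 per library, and 20720 to 22507 genes had a value in a library. Defining markers of the sorted cells were present throughout. Trpv1 had a mean log2 RPKM of 4.22 and Calca, the precursor of the peptide CGRP, one of 9.90, and all 10 sensory neuron markers had a value in every library. Glial transcripts were also present, since all 10 glial markers had a value in every library. Their summed level was 2024 to 4001 RPKM in lumbar libraries (median 2545) and 1247 to 2099 in sacral libraries (median 1578), higher in lumbar in 10 of 10 donors. The summed level of the 10 neuronal markers was 2144 to 3164 RPKM in lumbar libraries (median 2745) and 2771 to 3678 in sacral libraries (median 3142), higher in sacral in 9 of 10 donors. Both differences passed the exact sign-flip permutation test over the 10 donors, two-sided (p = 0.00195 for glia, the smallest this test can give, and p = 0.00391 for neurons, adjusted p = 0.00586 and 0.00703 over 9 marker lists). Macrophage and endothelial markers were summed to higher levels in lumbar libraries of all 10 donors as well. Their medians were 17 against 7.18 RPKM and 37.4 against 22.7 RPKM. The mast cell sum was higher in sacral in 9 of 10 donors (adjusted p = 0.00703, sign-flip test). Only 1 of its 5 markers had a value in every library. The platelet (adjusted p = 0.0381, sign-flip test), mural and large neuron sums were higher in sacral in 7 donors each and the fibroblast sum in 6. The mural, large neuron and fibroblast sums did not pass (adjusted p of at least 0.163, sign-flip test). In such libraries fewer cells of a type and less RNA per cell cannot be told apart.

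F2rl2 was by far the most abundant of the 10 receptors. Its mean log2 RPKM was 6.21 ± 0.52 (SD, n = 20 libraries), above 97.8% of the 17138 genes with a value in every library, on 3919 to 18906 reads. PAR3 is often described as a partner of other protease-activated receptors. Ptger1 (3.04 ± 0.34), Ptger3 (3.03 ± 0.42) and Ptgir (2.88 ± 0.79) followed at nearly equal levels. Ptger1 exceeded Ptger3 in 10 of 20 libraries and Ptger3 exceeded Ptgir in 12 of 20, so these 3 neighbours were not separated beyond their spread. Ptger4 came next at 0.98 ± 0.51, below Ptgir in all 20 libraries. F2r stood at 0.41 ± 0.62, F2rl1 at -0.29 ± 0.95, Ptger2 at -1.03 ± 0.79 and Bdkrb2 at -1.45 ± 1.10. Among these 5 lowest receptors each neighbour in the order exceeded the next in only 12 to 15 of the 20 libraries. On the linear scale F2rl2 made up 96.0% ± 1.65 of the summed RPKM of the 3 protease-activated receptors in lumbar and 97.4% ± 0.66 in sacral libraries (SD, n = 10 each).

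Bdkrb1, the inducible bradykinin receptor, was nearly absent from these neurons, which came from untreated mice but were dissociated before sorting. It had a value in 3 of 20 libraries (2 lumbar and 1 sacral), with at most 5 reads, and was not tested. In the other 17 libraries a count of 0 allows up to 3 reads, which corresponds to a log2 RPKM of at most -4.91 to -4.01 depending on the library, for counting error only.

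Of the 9 receptors that passed the filter on low values, 6 differed between spinal levels, and all 6 were upregulated in sacral DRG (limma, Benjamini-Hochberg adjusted p of at most 0.05 over all 16304 genes tested). Across those genes 45.6% were called (52.9% had an unadjusted p under 0.05), 30.3% with higher expression in sacral and 15.3% in lumbar neurons. The median lumbar minus sacral difference was -0.76 over the 9 receptors and -0.11 over all genes tested. The filter asked for a group mean above -1, and Bdkrb2 passed it only through the female sacral group, where it was high, so the number and the median of the receptors that passed are given as a description. Negative differences denote higher expression in sacral DRG. In none of the 9 did every sacral value lie above every lumbar value, which 1.34% of the 15318 genes with a value in all libraries showed. The plot of values by donor shows the paired libraries of each receptor.

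**Figure D1:**
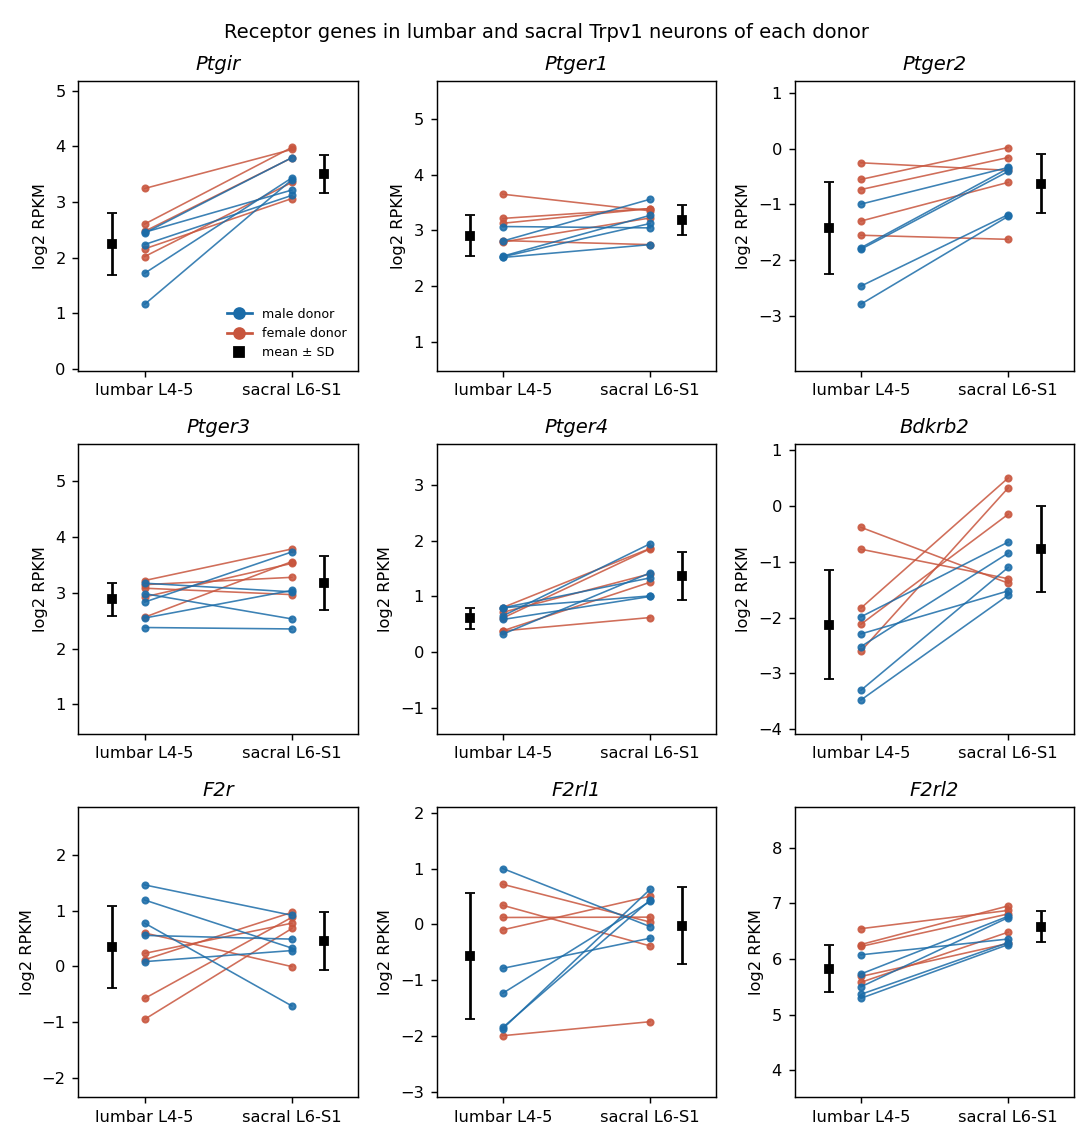
Log2 RPKM (y axis, the same span of 5.2 units in each panel) of 9 receptor genes in the lumbar and sacral library of each of 10 donors, joined by a line, with the mean ± SD of the 10 libraries of each level beside the points. The lines of Ptgir, Ptger4 and F2rl2 rise from lumbar to sacral in all 10 donors, those of F2r and F2rl1 cross, and Bdkrb1 is left out because 17 libraries had no read.

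Ptgir, the prostacyclin receptor gene, had the lowest p-value of the 10. Its lumbar values ran from 1.16 through a median of 2.34 to 3.24 log2 RPKM, and its sacral values from 3.06 through 3.42 to 3.98. The highest lumbar value, in female donor 2, was the only 1 of the 10 above the lowest sacral value. The difference was -1.26 (SE 0.16, adjusted p = 6.2e-06, limma), or 2.39-fold more RNA in sacral neurons, and it ran from -0.70 to -2.24 among the donors. Sacral exceeded lumbar in 10 of 10 donors, which 14.6% of the 15318 genes with a complete set of values also showed.

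Ptger4, which encodes the Gs-coupled EP4 receptor, had lumbar values between 0.32 and 0.80 (median 0.63) and sacral values between 0.62 and 1.94 (median 1.37). Only the sacral library of female donor 4 lay within the lumbar range. The difference was -0.77 (SE 0.14, adjusted p = 0.00023, limma), with sacral higher in 10 of 10 donors. Lumbar libraries were tightly grouped (SD 0.18) and sacral libraries less so (SD 0.43). Ptger4 shares 1015 exon bases (15.3% of its exon length) with the pseudogene Gm15937 and 82 with Ttc33, both on the opposite strand. Counting by strand is not stated and the library kits do not mark strand, so reads of these genes in the shared stretches cannot be told apart.

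Ptger2 encodes EP2, the second Gs-coupled prostaglandin E2 receptor, and was low, with 20 to 222 reads. Lumbar values ran from -2.79 through -1.43 to -0.25 and sacral values from -1.63 through -0.40 to 0.02, so the groups overlapped. The difference was -0.80 (SE 0.25, adjusted p = 0.014, limma), and sacral was higher in 8 of 10 donors. In males sacral exceeded lumbar in 5 of 5 donors, by 1.27 on average, and in females in 3 of 5, by 0.33. The females alone did not pass the test (adjusted p = 0.522, limma), and the difference between the sexes was not called (unadjusted p = 0.075, limma).

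Ptger1, the EP1 gene, was close to the threshold. Lumbar values ran from 2.51 through 2.81 to 3.65 and sacral values from 2.74 through 3.24 to 3.56, with wide overlap. The difference was -0.28 (SE 0.11, adjusted p = 0.048, limma), with sacral higher in 7 of 10 donors, and it was no longer called when any 1 of 6 donors was left out (adjusted p up to 0.121, limma).

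Ptger3, which encodes the Gi-coupled EP3 receptor, had lumbar values from 2.38 to 3.22 (median 2.96) and sacral values from 2.35 to 3.79 (median 3.16). The difference of -0.29 (SE 0.14, adjusted p = 0.094, limma) did not pass, and sacral was higher in 6 of 10 donors. The differences ran from -0.9996 in female donor 3 to 0.45 in male donor 3, and the 5 largest in size were all higher in sacral neurons.

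Bdkrb2, the bradykinin B2 receptor gene, had the largest estimate and one of the largest errors. Lumbar values ran from -3.48 through -2.21 to -0.38 on 6 to 61 reads, and sacral values from -1.60 through -0.97 to 0.51 on 29 to 142 reads. The difference was -1.36 (SE 0.34, adjusted p = 0.0028, limma). Because the gene was tested only through the female sacral group, where it is high, this p is to be read with that limit, and without any filter on low values it was 0.0032 (adjusted, limma). Sacral was higher in 8 of 10 donors, while female donors 2 and 3 had more Bdkrb2 in lumbar neurons by 0.53 and 1.0023 respectively. The females alone gave -1.14 (adjusted p = 0.129, limma). On the log2(RPKM + 1) scale, which compresses low values, the estimate was -0.36.

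F2rl2, the PAR3 gene, was upregulated in sacral DRG of every donor. Lumbar values ran from 5.30 through 5.71 to 6.55 and sacral values from 6.26 through 6.61 to 6.95. The difference was -0.76 (SE 0.12, adjusted p = 4.0e-05, limma), or 1.69-fold, and it lay between -0.28 and -1.24 in the 10 donors. F2r and F2rl1 were not called. For F2r, the thrombin receptor gene, lumbar values ran from -0.95 to 1.46 (median 0.40) and sacral values from -0.71 to 0.97 (median 0.59), with a difference of -0.11 (SE 0.22, adjusted p = 0.699, limma) and sacral higher in 5 of 10 donors. For F2rl1, which encodes the trypsin- and tryptase-activated PAR2, lumbar values ran from -1.9975 to 1.0041 (median -0.44) and sacral values from -1.75 to 0.63 (median 0.09), with a difference of -0.54 (SE 0.34, adjusted p = 0.205, limma) and sacral higher in 7 of 10 donors. F2rl1 passed when male donor 3 was left out (-0.82, adjusted p = 0.043, limma). Both rested on few reads, 99 to 452 for F2r and 25 to 246 for F2rl1.

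**Figure D2:**
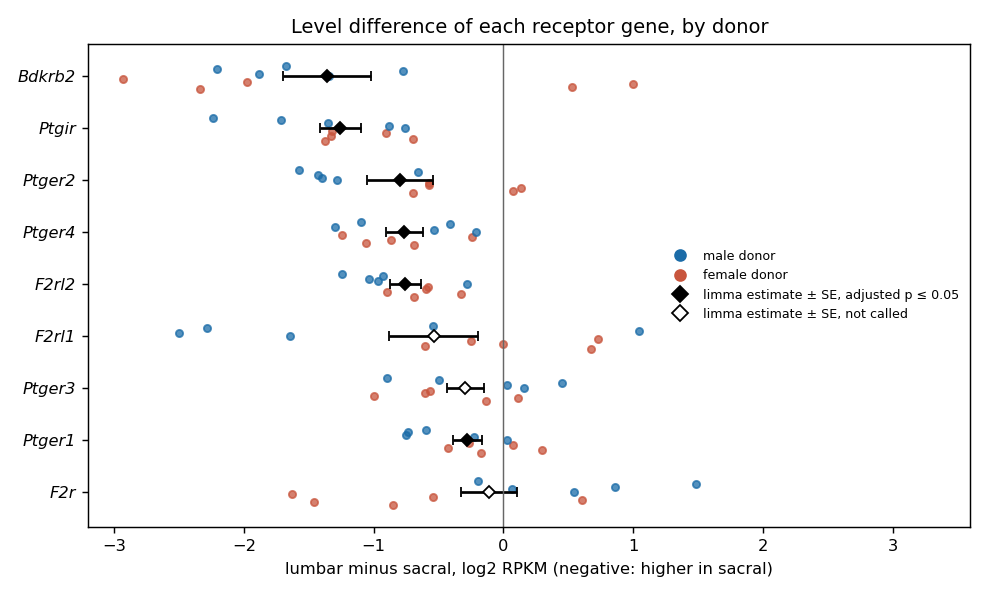
Lumbar minus sacral difference in log2 RPKM (x axis) of each tested receptor gene, with 1 point per donor and a diamond with its standard error for the limma estimate, filled at an adjusted p of at most 0.05. All 10 points of Ptgir, Ptger4 and F2rl2 lie left of 0, and the points of F2r, F2rl1 and Ptger3 fall on both sides.

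Scaling bears on these sizes, because every library of the table has a median of 0.93 and the median of all genes tested lay at -0.11. With TMM factors it moved to 0.0037 and with total reads to -0.44. Relative to that median, the differences over 5 scalings ran from -1.15 to -1.09 for Ptgir, from -0.75 to -0.66 for Ptger4, from -0.65 to -0.49 for F2rl2, from -0.95 to -0.69 for Ptger2 and from -1.54 to -1.21 for Bdkrb2. All of these were called under each of the 5 scalings. For Ptger1 the range was -0.17 to -0.09, and it was called only on the deposited values and on total reads. F2r stood between -0.14 and -0.00055. Ptger3 and F2rl1 were called on total reads alone. Of all genes called, 66.5% were higher in sacral on the deposited values, 50.7% with TMM factors and 88.1% on total reads.

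The make-up of the RNA of the 5 prostaglandin E2 and prostacyclin receptors also differed between levels. Other prostanoid receptors, among them Ptgdr at a mean log2 RPKM of 3.17, were left out. The summed RPKM of the 5 prostaglandin E2 and prostacyclin receptors was 22.3 ± 5.11 in lumbar and 33.8 ± 5.69 in sacral libraries (SD, n = 10 each). Ptgir made up 22.3% ± 4.197 of that sum in lumbar and 34.4% ± 4.55 in sacral libraries, and its share was higher in sacral in 10 of 10 donors. The share of Ptger1 was 34.4% ± 2.001 in lumbar and 27.3% ± 2.97 in sacral libraries and higher in sacral in 1 donor, and that of Ptger3 was 34.2% ± 4.65 and 28.2% ± 7.67, higher in sacral in 2 donors. Ptger4 held 7.08% ± 1.37 and 7.93% ± 1.85, and Ptger2 2.01% ± 1.20 and 2.10% ± 0.82. These shares are ratios within a library and do not depend on its scaling.

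**Figure D3:**
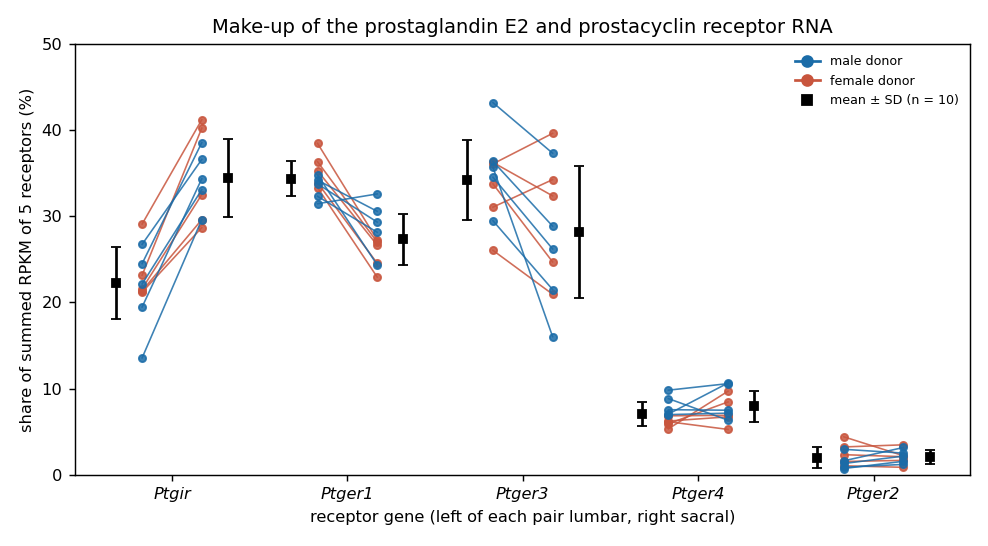
Share of the summed RPKM of Ptgir and Ptger1 to Ptger4 (y axis, percent, from 0) held by each gene in the lumbar and sacral library of each donor, joined by a line, with the mean ± SD of 10 libraries. Ptgir goes up in all 10 donors, from a mean of 22.3% to 34.4%, while Ptger1 goes down in 9.

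Neuronal and glial transcripts also differed with spinal level, and their part in the receptor differences was not tested apart from the values given here. The mean log2 RPKM of the 10 neuronal markers was 6.80 ± 0.26 in lumbar and 7.31 ± 0.14 in sacral libraries, lower in lumbar in 10 of 10 donors, and that of the 10 glial markers was 6.65 ± 0.37 and 5.72 ± 0.41 (SD, n = 10 each). Relative to the neuronal marker mean of the same library, the lumbar minus sacral difference of Ptgir was -0.75 ± 0.31 (SD, n = 10 donors), and that of F2rl2 -0.24 ± 0.12, each with sacral higher in 10 of 10 donors. Of the 15318 genes with complete values, 1.33% did the same in all donors. On this scale Ptger4 was at -0.26 ± 0.42 with sacral higher in 6 donors, Ptger2 at -0.29 ± 0.55 and Bdkrb2 at -0.85 ± 1.254 with sacral higher in 8 donors each. Ptger1 was at 0.23 ± 0.25, Ptger3 at 0.22 ± 0.41, F2r at 0.40 ± 1.12 and F2rl1 at -0.03 ± 1.26. When the glial marker mean was a covariate, no receptor was called. As that mean was higher in lumbar in 10 of 10 donors, this fit separates it from level only poorly, and so does the fit with the neuronal mean. Ptgir was then at -0.75 (adjusted p = 0.322, limma), Ptger4 at -0.41, F2rl2 at -0.08 and Bdkrb2 at -0.65, and 100 of all genes were called. With the neuronal marker mean as covariate, a fit added after seeing the data, no receptor was called either, and Ptgir was at -0.49 (adjusted p = 0.539, limma), Ptger4 at -0.34, F2rl2 at -0.05 and Bdkrb2 at -0.97.

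No receptor was called between the sexes within a level, or in the interaction of sex and level. Over all genes 0.0427% were called in lumbar, 0.0368% in sacral neurons and none in the interaction by limma, where 4.1% of genes had an unadjusted p under 0.05. F2r had the lowest interaction p of the receptors. Its lumbar values were 0.81 ± 0.54 in males and -0.11 ± 0.63 in females, and its sacral values 0.26 ± 0.60 and 0.66 ± 0.39 (SD, n = 5 each). In males 1 of 5 donors had more F2r in sacral neurons, and in females 4 of 5. The interaction was -1.33 (SE 0.43, unadjusted p = 0.0056, adjusted p = 0.958, limma), so it did not pass. In lumbar neurons 5 receptors had an unadjusted p under 0.05 between the sexes by limma, where 11.4% of genes did, and none an adjusted p under 0.336. Females were higher by 1.09 for Ptger2, 1.18 for Bdkrb2, 0.47 for F2rl2 and 0.43 for Ptger1, and F2r was at -0.93. In sacral neurons Ptger3 was higher in females by 0.49 (SE 0.22, unadjusted p = 0.037, adjusted p = 0.596, limma), and 8.09% of all genes had an unadjusted p under 0.05 there. By sex, the 6 receptors called in both sexes together were also called in the males alone, and Ptgir, Ptger4 and F2rl2 in the females alone. Over all genes 4588 were called in the males and 3634 in the females, and no receptor was called in the interaction (adjusted p of at least 0.958, limma).

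Among the remaining receptors of these families, Ptgdr, which encodes the prostaglandin D2 receptor DP1, stood at a mean log2 RPKM of 3.17. Ptgdr was upregulated in sacral DRG (-0.46, SE 0.14, adjusted p = 0.011, limma). The call was lost with quantile normalization, in either sex alone and at an adjusted p of 0.01. F2rl3, the PAR4 gene, had a mean of -1.42 and was higher in sacral neurons (-1.57, SE 0.57, adjusted p = 0.030, limma) in 8 of 10 donors. Its mean was above the filter of -1 in sacral (-0.63) but not in lumbar libraries (-2.21), so this p is to be read with that limit. F2rl3 was no longer called with donor as a fixed effect (adjusted p = 0.053, limma), without female donor 3 (-1.004), male donor 4 (-1.19) or male donor 5 (-1.41), or in either sex alone. Tbxa2r, the thromboxane receptor gene, was at -0.68 in lumbar and -1.52 in sacral neurons and was not called (adjusted p = 0.061, limma). Ptgdr2 and Ptgfr did not pass the filter, with means of -2.65 and -2.55 over the 19 libraries with a value.

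Of 10 genes of prostanoid synthesis, 7 were tested, and 5 were called higher in lumbar and 1 in sacral neurons, where 15.3% and 30.3% of all genes were. The median difference was 1.11, against -0.11 over all genes. Ptgs1 and Ptgis had means above the filter of -1 in lumbar (-0.65 and -0.58) but not in sacral libraries (-1.81 and -1.445). The counts and the median of this list are therefore a description. Ptges, the inducible prostaglandin E2 synthase gene, had means of 1.58 in lumbar and 0.27 in sacral libraries and was higher in lumbar in all 10 donors (1.31, SE 0.21, adjusted p = 5.0e-05, limma). Ptgds, the prostaglandin D2 synthase gene, was higher in lumbar by 1.46 (SE 0.28) and the cyclooxygenase genes Ptgs1 and Ptgs2 by 1.15 and 1.11. Ptgis, the prostacyclin synthase gene, was higher in lumbar by 0.87 (SE 0.29, adjusted p = 0.018, limma). Ptges3, a cochaperone also known as a prostaglandin E synthase and the most abundant of the list, was higher in sacral (-0.37, SE 0.08). Of 6 clearance genes, 2 were upregulated in lumbar and 1 in sacral DRG. Hpgd, which inactivates prostaglandins, was higher in lumbar by 2.26 (SE 0.54). Its mean was above the filter in lumbar (-0.03) but not in sacral libraries (-2.28). The uptake transporter gene Slco2a1 was higher in lumbar by 0.55 (SE 0.22, adjusted p = 0.048, limma). Slco2a1 was called in only 11 of 28 other settings and was lost when any 1 of 8 donors was left out (0.44 to 0.59). The exporter gene Abcc4 was higher in sacral (-0.93, SE 0.13) in 10 of 10 donors, and Cbr1, the most abundant clearance gene at 4.73, was not called. The glial and endothelial markers given above were higher in the same lumbar libraries, and their part in these values was not tested.

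For kinins, the precursor genes Kng1 and Kng2 had a value in 4 and 11 libraries and were not tested. Of 13 genes of kinin formation and breakdown, 5 were tested. Mme, the peptidase neprilysin, was higher in lumbar by 0.83 (SE 0.19), whereas the carboxypeptidase genes Cpd (-0.38, SE 0.09) and Cpn1 (-0.94, SE 0.27) were higher in sacral neurons. Cpn1 had a mean above the filter of -1 in sacral (-0.36) but not in lumbar libraries (-1.30). Ece1, the most abundant at 5.42, was not called. Of 20 genes for proteases that act on these receptors and their inhibitors, 9 were tested. Of these, 5 were called higher in lumbar and 2 in sacral neurons, where 15.3% and 30.3% of all genes were. Ctss, called higher in lumbar, had a mean above the filter of -1 in lumbar (-0.05) but not in sacral libraries (-2.29). These counts are therefore a description. Serpine2, a thrombin inhibitor, was higher in lumbar by 1.08 (SE 0.14, adjusted p = 6.3e-06, limma). Thbd, the thrombin-binding thrombomodulin and the most abundant of the list at 4.63, was higher in sacral (-0.67, SE 0.12) in 10 of 10 donors, as was the serine protease inhibitor gene Serpini1 (-0.57, SE 0.10) in 9. The prothrombin gene F2 had a value in 9 libraries.

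For the genes downstream of the receptors, the counts stand beside 30.3% of all genes called higher in sacral and 15.3% in lumbar neurons. That split, 66.5% sacral among calls, was 50.7% with TMM factors. As a gene could pass the filter through 1 group alone, these counts are a description. Of 12 G alpha subunit genes tested, 8 were called higher in sacral neurons and none higher in lumbar neurons by limma, with a median of -0.32, led by Gnaz (-0.60, SE 0.09), Gna13 (-0.53, SE 0.08) and Gnao1 (-0.59, SE 0.10), the last also the most abundant at 7.15. In the cAMP arm 12 of 17 genes were called higher in sacral neurons and 2 higher in lumbar (median -0.40). The protein kinase A regulatory subunits Prkar1b (-0.71, SE 0.09) and Prkar1a (-0.46, SE 0.07) were higher in sacral, and the adenylyl cyclase gene Adcy6 was higher in lumbar by 0.75 (SE 0.16). In the phospholipase C arm 8 of 15 were called higher in sacral neurons and 3 higher in lumbar (median -0.41). The protein kinase C genes Prkcb (-1.001, SE 0.12), Prkcd (-0.66, SE 0.10) and Prkca (-0.70, SE 0.13) were higher in sacral, and the inositol trisphosphate receptor gene Itpr3 was higher in lumbar by 1.08 (SE 0.14).

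Of 15 genes of receptor desensitization and G protein turnover, 9 were called higher in sacral neurons and 1 higher in lumbar (median -0.43). Rgs8 (-0.88, SE 0.11), Rgs2 (-0.53, SE 0.10), Rgs4 (-0.63, SE 0.13) and the β-arrestin gene Arrb2 (-0.44, SE 0.08) were higher in sacral neurons in 10 of 10 donors. Of 14 effector channel genes, 11 were tested and all 11 of these were called higher in sacral neurons (median -0.85), against 30.3% of all genes. The other 3, Trpv4, Kcnq3 and Ano1, did not pass the filter on low values, and Ano1, a calcium-activated chloride channel gene, had means of -1.89 in lumbar and -3.51 in sacral libraries, lower in sacral in all 10 donors. Scn11a (-1.19, SE 0.15), Scn9a (-1.06, SE 0.14) and Scn10a (-0.94, SE 0.15), the sodium channel genes of nociceptors, and the T-type calcium channel gene Cacna1h (-0.98, SE 0.12) were among them. Trpv1 itself, whose locus drives the reporter used for sorting, was at -0.96 (SE 0.15, adjusted p = 3.6e-05, limma). Both Trpv1 and Scn10a are counted among the effector channels and again among the neuronal markers. Of the 10 neuronal markers, 8 were called higher in sacral neurons and none higher in lumbar by limma (median -0.59), and of the 10 glial markers 9 in lumbar (median 0.94), and the part of cell mixture in the values of these lists was not tested.

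**Figure D4:**
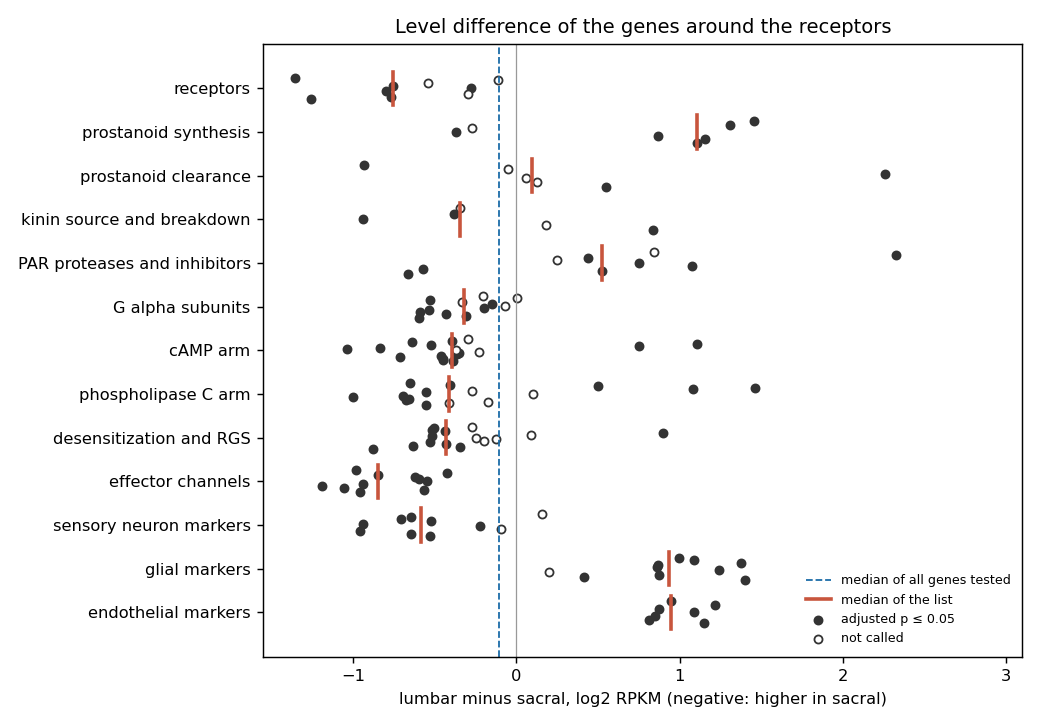
Lumbar minus sacral difference in log2 RPKM (x axis) of every tested gene in 13 lists, with filled points at an adjusted p of at most 0.05, a bar at the median of each list and a dashed line at the median of all genes tested (-0.11). Receptors, effector channels and neuronal markers lie mostly left of 0, and prostanoid synthesis, glial and endothelial genes mostly right of it. Trpv1 and Scn10a appear in both the effector channel and the neuronal marker list.

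The genes with the pattern most like each receptor over the 20 libraries were found among 15318. The libraries share donors and levels, so these correlations are a description. F2rl2 followed the potassium channel subunit gene Dpp6 (Pearson r = 0.98, and 0.94 for the deviations from the 4 group means), Ywhag (0.98 and 0.97) and Arhgdia (0.98 and 0.94). Ptgir followed the low-affinity neurotrophin receptor gene Ngfr (0.96 and 0.90), Cbx6 (0.96 and 0.85) and Esyt1 (0.95 and 0.83). Ptger3 followed Lcp1 (0.94 and 0.93), Kcnab1 (0.93 and 0.92) and Mrgprd (0.93 and 0.91), a receptor gene of nonpeptidergic nociceptors. Ptger4 was most like Dgat2 (0.92 and 0.86), Inpp5f (0.90 and 0.74) and B3gntl1 (0.88 and 0.74), and Ptger1 was like Cblb (0.91 and 0.88) and Capn5 (0.91 and 0.91). For Bdkrb2 these were Bend4, Tmem206 and Gm17201 (0.88, 0.88 and 0.87).

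Matches were weaker for Ptger2, F2r and F2rl1. Ptger2 was most like Khdrbs2 (0.78), Zcchc3 (0.75) and the progesterone receptor gene Pgr (0.75), F2r most like Plekhh2 (0.73), Btbd11 (0.71) and 2410002F23Rik (0.71), and F2rl1 most like Vstm2l (0.73), Gm14608 (0.72) and Pwp2 (0.70). Among the receptors, Ptgir and F2rl2 correlated at 0.93 over the 20 libraries and at 0.77 in deviations from the group means, and Ptger1 and F2rl2 at 0.86 and 0.88. Ptger2 went against F2rl2 in those deviations (-0.58). The deviations of F2rl2 correlated with those of the neuronal marker mean at 0.89 and with those of the glial marker mean at -0.82, and for Ptgir these were 0.70 and -0.44. Those of Ptger2 were -0.44 and 0.58, of F2r 0.03 and -0.20, and of F2rl1 0.18 and -0.19.

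**Figure D5:**
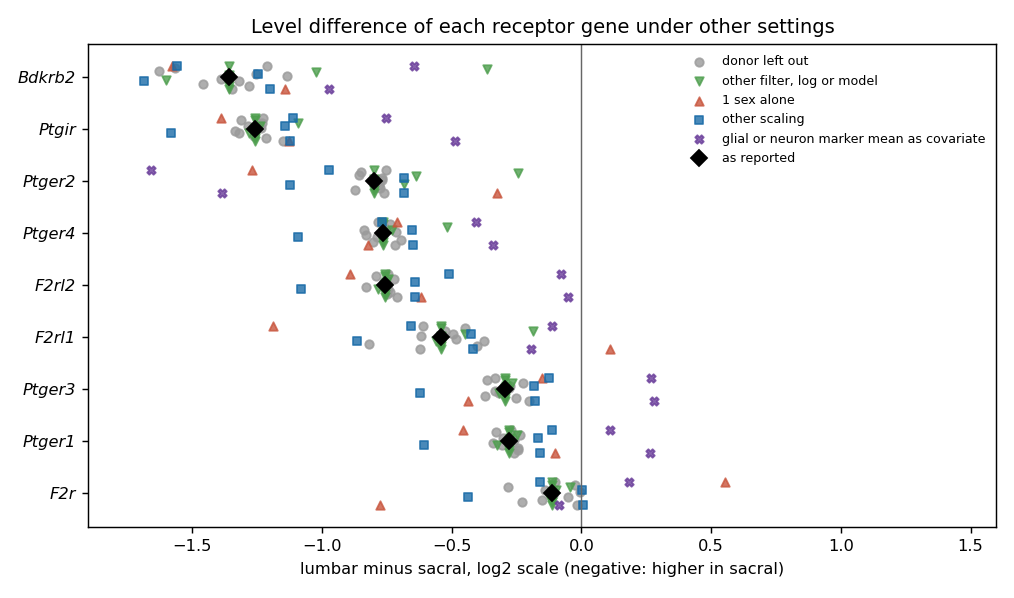
Lumbar minus sacral difference on the log2 scale (x axis) of each tested receptor gene as reported (diamond) and under 27 or 28 other settings of the analysis, by kind of setting. Ptgir, Ptger4, F2rl2, Ptger2 and Bdkrb2 stay left of 0 in every setting run, Ptger1 and Ptger3 cross 0 with a marker mean as covariate, F2rl1 in females alone, and F2r with the glial mean, in males alone and with TMM scaling.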

How the data were processed

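The authors checked read quality and aligned with Subread to mm9 (Ensembl 67). Reads mapping to 1 place were summed per gene by featureCounts and transformed by voom from limma 3.26.9 with TMM scaling from edgeR 3.12.1 (Subread 1.18 and 1.20.6 and R 3.2.1 and 3.2.2 per the submitters' processing notes). The strand setting is not given in the sources used here. The authors deposited log2 RPKM values of 20 libraries, in which there are 319449 empty cells. The common median of 0.93 is not described in the methods.

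Of 37620 genes, 37205 matched the NCBIM37 annotation. Reads were worked back from the values and exon lengths, and 98.4% of 203083 values came out whole within 0.01 of a read. Depth gives counting error only. Groups came from the labels, and the libraries sharing animal numbers were paired. Their deviations from the group means correlated at 0.14 (0.02 to 0.24 over 10 pairs). For different donors of one sex this was -0.03 (-0.28 to 0.27 over 40 pairs), a range that contains that of the matched pairs.

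limma 3.58.1 with statmod 1.5.0 in R 4.3.3 was fitted to the deposited log2 values with 4 group means, a mean-variance trend, donor correlation (0.17) and p-values adjusted by Benjamini-Hochberg at 0.05. Genes were kept at a group mean above -1 over at least 3 values, and 16304 were tested between levels. A gene could pass through 1 group alone, so the counts and medians of the lists are a description. Tested on simulated data of 15318 genes with 100 planted changes of 0.75 on the log2 scale, the comparison of levels recovered 77%, with 1.8% of calls false. The comparison of the sexes in sacral neurons recovered 42%, with 4.5% of calls false. Far more genes were called between levels in the real data (45.6%), so these shares need not hold there. Marker sums were compared by exact sign-flip permutation over 10 donors (1024 patterns) in Python 3.11.15, with pandas 2.3.3 and numpy 2.4.6, and plots drawn with matplotlib 3.10.9.

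The receptors and lists were chosen with earlier results of these data known. Named were the 10 receptors, the other receptors of their families, in each pathway list the 3 genes with the lowest adjusted p and the most abundant one, and for each receptor the 3 genes of highest Pearson r. A result on 1 item that bears on Ptger1 is not reported here. Marker lists are given by counts, medians and sums. Ptgs1, Ptgs2, Ptgis, Kng1, Kng2, Ctss, F2, Trpv1, Trpv4, Kcnq3 and Ano1 were named after their values were seen. Alternatives were other filters, pseudocounts of 1 and 0.1, empty cells at 0.5 reads, other scalings, voom, array weights, other donor models, each donor left out, each sex alone, an adjusted p of 0.01 and a glial marker mean as covariate. A neuronal marker mean as covariate was added after seeing the data.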

Additional observations from a re-analysis of the deposited data

Results flagged for a closer look

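Ptger1 in the female sacral group had 1 library far from the rest. Its value in female donor 4 was 2.74 log2 RPKM, and the other 4 libraries of the group lay between 3.22 and 3.39, so the gap took 0.738 of the whole range of the group, above Dixon's critical value of 0.71 for 5 libraries. Chance alone gives about 1 in 20 such groups, and 36 groups were examined. Without that donor the level difference of Ptger1 stayed called. The same library also gave the lowest sacral values of Ptgir (3.06) and Ptger4 (0.62).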

How the results depend on the processing

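Ptgir, Ptger4, F2rl2, Ptger2 and Bdkrb2 were higher in sacral in all 27 or 28 other settings, and Ptgir, Ptger4 and F2rl2 were called in 26 of 28, all but those with a marker covariate. With the glial marker mean as covariate 0 receptors and 100 genes were called, and Ptger1 (0.11), Ptger3 (0.27) and F2r (0.18) changed sign. With the neuronal marker mean, added after seeing the data, 0 receptors and 66 genes were called, and Ptger1 (0.26) and Ptger3 (0.28) changed sign. Both marker means differed with level in 10 of 10 donors, so these fits separate them from level only poorly. In males alone 4588 genes were called and F2r was at 0.55. In females alone 3 receptors and 3634 genes were called and F2rl1 was at 0.11. F2r was at 0.0021 with TMM factors and 0.0060 with voom. Ptger1 was called in 12 of 28 settings. With each donor left out in turn, 5 to 6 receptors and 6602 to 7458 genes were called. At a group mean above 0, Bdkrb2 and Ptger2 were not tested and 4 receptors were called. Without the replicate block 5 receptors and 6577 genes were called, Ptger1 alone being lost (adjusted p = 0.083, limma), and with it as a fixed effect 6 and 7151. No receptor was called between the sexes or in the interaction under any setting run. Of the 32 named pathway genes and other receptors that were called, all kept their direction in every setting without a covariate, and 23 were called in each. With a covariate, F2rl3, Ptgdr, Mme, Cpd and Slco2a1 changed sign in at least 1 fit. Depth limits Bdkrb1, Bdkrb2, Ptger2 and F2rl1 most.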
